A study of Mus musculus with 2 samples.

Results

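Baz1b lies in the chromosome segment lost in Williams-Beuren syndrome (WBS) and encodes WSTF, a chromatin-bound protein of the BAZ family that works with ATPases of the ISWI type. The set described here holds Baz1b, its relatives Baz1a, Baz2a and Baz2b, the ISWI ATPase genes Smarca5 and Smarca1, the subunit genes Bptf, Rsf1 and Cecr2, and the histone-fold gene Chrac1. Members were found by symbol: every probe set annotated to exactly 1 of these 10 genes was taken, of 18194 genes that had such a probe set. This gave 32 of 34958 probe sets, and 0 entries naming several genes included a member.

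The RNA came from 1 group, a mouse embryonic stem (ES) cell line with the genotype Del1.3MbWBS, a 1.3 Mb deletion of the WBS region, measured on 2 arrays that the labels call biological replicates. It is a single line, named ESSP9 in the series title, grown on feeder cells with LIF and 20% serum replacement. The labels give neither the genes inside the deletion nor whether 1 or both copies were lost, and whether the replicates were separate cultures is not stated, so their spread may be technical. No line without the deletion was analysed here, so the values below are levels and not effects of the deletion.

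ISWI ATPases slide nucleosomes along DNA, and the larger subunit that each one pairs with sets where the complex goes. WSTF joins SNF2H, the product of Smarca5, in the WICH complex, which travels with replication sites, and it also phosphorylates a tyrosine of the histone variant H2AX. Baz1a forms the ACF complex with SNF2H, Baz2a forms the nucleolar silencing complex NoRC, and Bptf forms NURF with SNF2L, the product of Smarca1. In mouse embryos Smarca5 is needed around implantation.

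The promoters of 3 members are shown. Baz1b is the gene of the WBS segment and Smarca5 the ATPase gene of its complex. Baz2b had the fewest CG dinucleotides among the 6 members for which a window was found. Each window runs from 250 bases before to 50 bases after the annotated start of the gene, 5′ to 3′ on the strand of the gene, taken from RefSeq (GRCm38.p6). Capitals mark matches, on either strand, to the GC box (GGGCGG), the CCAAT box (CCAAT), the TATA box (TATAAA), an E box (CACGTG) or a YY1-like motif (AANATGGC). The windows are chr5:135187073-135187372 on the plus strand for Baz1b, chr8:80739410-80739709 on the minus strand for Smarca5 and chr2:60125691-60125990 on the minus strand for Baz2b.
Baz1b: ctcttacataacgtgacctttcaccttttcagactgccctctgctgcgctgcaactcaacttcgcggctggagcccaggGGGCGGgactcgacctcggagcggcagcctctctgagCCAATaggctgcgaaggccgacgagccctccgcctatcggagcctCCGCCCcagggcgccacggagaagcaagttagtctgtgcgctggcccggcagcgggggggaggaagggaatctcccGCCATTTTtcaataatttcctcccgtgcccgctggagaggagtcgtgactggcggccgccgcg
Smarca5: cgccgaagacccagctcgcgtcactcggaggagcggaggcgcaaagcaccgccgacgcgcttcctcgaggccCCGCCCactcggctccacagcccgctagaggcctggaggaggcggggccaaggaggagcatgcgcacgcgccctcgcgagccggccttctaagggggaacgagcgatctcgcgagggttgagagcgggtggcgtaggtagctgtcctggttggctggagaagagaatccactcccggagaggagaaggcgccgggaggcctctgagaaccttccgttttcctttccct
Baz2b: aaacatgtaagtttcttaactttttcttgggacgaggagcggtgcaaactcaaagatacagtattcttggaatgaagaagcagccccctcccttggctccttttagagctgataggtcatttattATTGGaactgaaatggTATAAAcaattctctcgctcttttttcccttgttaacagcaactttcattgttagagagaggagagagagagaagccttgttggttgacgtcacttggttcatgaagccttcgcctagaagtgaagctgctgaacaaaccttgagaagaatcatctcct

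Of the 6 windows found, 4 had 27 to 39 CG dinucleotides, with 85.8% to 96.1% of all windows at or below their counts. For Smarca1 and Baz2b those shares were 56.5% and 43.6%. No cutoff for a window rich in CG was set. Baz1b had 27 CG dinucleotides and 64.7% G+C, Smarca5 had 32 and 67.7%, Baz2a had 30 and 71.0%, and Bptf had 39 and 76.3%. Smarca1 had 9 and 58.7%, and Baz2b had 5 and 41.7%. Over 32851 windows of 300 bases the medians were 7 CG dinucleotides and 52.7% G+C, so the window of Baz2b lay below both medians and that of Smarca1 above both. RefSeq windows were matched for these 6 members and not for the other 4.

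**Figure D1:**
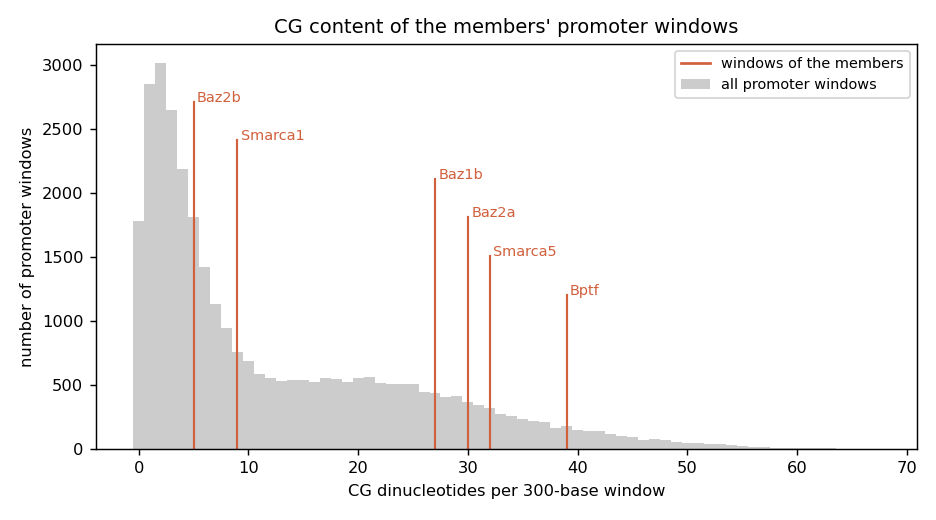
Number of promoter windows (y axis) by their CG dinucleotides per 300 bases (x axis), with grey bars for all 32851 windows and lines for the 6 members that had one; the height of a line has no meaning. Baz1b, Baz2a, Smarca5 and Bptf stand at 27 to 39 and Smarca1 and Baz2b at 9 and 5.

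Among the letters searched, the GC box was in 5 of the 6 windows, all but that of Baz2b, and in 35.7% of all windows. The CCAAT box was in those of Baz1b, Baz2b and Smarca1, against 37.4% of all windows. The TATA box letters were in that of Baz2b alone, 109 bases before the start, against 13.6% of all windows. The YY1-like letters were in those of Baz1b, 13 bases before the start, and Bptf, 25 bases after it, against 6.05% of all windows, and the E box was in that of Bptf, against 7.15%. The 16 matches in the 6 windows overlapped in 0 pairs. The motifs were chosen with the sequences in view, and the shares of all windows were not matched for base composition. No enrichment is therefore read from these counts. The matches are of letters and say nothing of binding, which the arrays did not measure.

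All 10 members were above background, against 68.4% of all 18194 genes. The call required that the brightest probe set of a gene exceed, in the mean and on each array, the 95th percentile of 39 olfactory receptor genes, for which no transcript is expected in ES cells. That threshold was 5.59 for the mean, on the scale of the deposited values, which are log2 expression values from RMA (robust multi-array average). At the level of probe sets, 25 of 32 were above it, against 61.8% of all probe sets of 1 gene. For 6 members every probe set was above background, against 68.5% of the genes above background. The first 2 shares were thus higher, and the last lower, than over all genes, and nothing particular to the set is read from 10 genes picked by name. Of the members 9 had several probe sets, as did 9012 of the 18194 genes. The shares of genes were not matched for this. More probe sets make a call by the brightest easier and a call of every probe set harder. Levels are not ranked between genes, since probes bind with unequal strength.

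**Figure D2:**
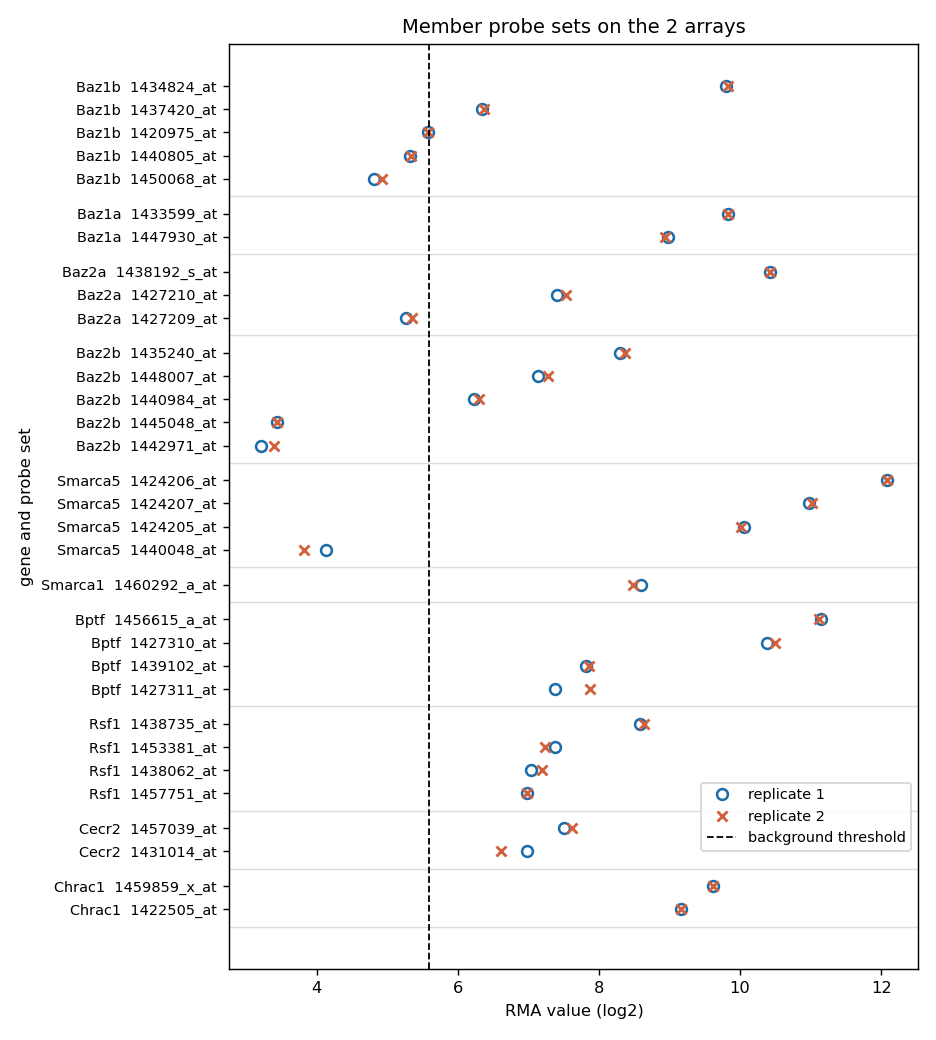
RMA values (x axis, log2) of the 32 probe sets of the members (rows, by gene), with circles for replicate 1, crosses for replicate 2 and the background threshold of 5.59 as a dashed line. Each gene has at least 1 probe set right of the line, and 7 probe sets of Baz1b, Baz2a, Baz2b and Smarca5 lie left of it.

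Baz1b, the member in the WBS segment, lies on mouse chromosome 5 between Bcl7b and Fzd9 in the reference gene table. Its brightest probe set, 1434824_at, read 9.81 on replicate 1 and 9.84 on replicate 2. A second, 1437420_at, read 6.34 and 6.37, also above background on both arrays. The other probe sets were not above it: 1420975_at read 5.58 and 5.57, 1440805_at read 5.33 and 5.33, and 1450068_at read 4.81 and 4.93. Transcripts of Baz1b were therefore measured by 2 of its 5 probe sets, and the count depends on where the threshold lies. The mean of 1420975_at, 5.579, was just under the threshold, and the nearest probe set of any member over it was 1440984_at of Baz2b, with a mean of 6.27. When the median over its 5 probe sets stood for the gene, Baz1b was at 5.58, under the threshold of 5.59. It was above background against the threshold made by the same median rule, 5.28. Its mean also exceeded the lower thresholds of 5.54, from all olfactory receptor probe sets, and 5.07, from the 90th percentile.

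Baz1a encodes ACF1, the subunit that gives the ACF complex its regular spacing of nucleosomes. Its probe sets read 9.83 and 9.83 (1433599_at) and 8.98 and 8.93 (1447930_at) on replicates 1 and 2, all far above the threshold. They lay 0.88 log2 units apart.

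Baz2a encodes TIP5, which brings NoRC to ribosomal RNA genes in the mouse. Probe set 1438192_s_at read 10.43 on both arrays, 1427210_at read 7.41 and 7.53, and 1427209_at read 5.26 and 5.36, below the threshold. The brightest carries the mark of a probe set shared between transcripts or genes. Without it the level of Baz2a was 7.47, with 1427210_at standing for the gene, in place of 10.43, and it was still above background.

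Baz2b encodes a bromodomain protein that binds acetylated histones. Probe set 1435240_at read 8.30 and 8.36, 1448007_at read 7.14 and 7.28, and 1440984_at read 6.22 and 6.31, above background on both arrays. Its probe sets 1445048_at, at 3.43 and 3.44, and 1442971_at, at 3.21 and 3.40, were not above background. Every probe set of Baz2b read higher on replicate 2, by 0.012 to 0.19 log2 units, within the range of probe sets of like level.

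Of the ATPases, Smarca5 encodes SNF2H, the motor of the WICH, ACF, NoRC and RSF complexes. Its probe sets read 12.08 on both arrays (1424206_at), 10.98 and 11.02 (1424207_at) and 10.06 and 10.01 (1424205_at). These 3 are annotated to the same target sequence entry, and their means still lay up to 2.05 log2 units apart. The remaining probe set, 1440048_at, is annotated to another entry and read 4.13 and 3.83, below the threshold on both arrays.

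Smarca1, on the X chromosome, encodes SNF2L, the ATPase of NURF in human cells. It had 1 probe set, 1460292_a_at, which read 8.60 on replicate 1 and 8.48 on replicate 2, a mean of 8.54 ± 0.084 (SD, n = 2). That probe set carries the mark of several transcripts, so an estimate from unmarked probe sets was not possible.

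Bptf encodes the largest subunit of NURF, which reads methylated histone H3 through a PHD finger, and mouse embryos need it soon after implantation. Probe set 1456615_a_at read 11.15 and 11.12, 1427310_at read 10.38 and 10.49, 1439102_at read 7.81 and 7.86, and 1427311_at read 7.38 and 7.87. All 4 were above background on both arrays. The brightest carries the mark of several transcripts, and without it the level of Bptf was 10.43 in place of 11.14. Although 1427310_at and 1427311_at are annotated to the same target sequence entry, their means lay 2.81 log2 units apart. The last probe set differed between the arrays more than any other of the 32.

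Rsf1 encodes the partner of SNF2H in the RSF complex, described in human cells. Its probe sets read 8.59 and 8.63 (1438735_at), 7.38 and 7.24 (1453381_at), 7.04 and 7.19 (1438062_at), and 6.98 and 6.98 (1457751_at). All 4 were above background, over a span of 1.63 log2 units.

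Cecr2, needed for closure of the neural tube in mice, encodes a bromodomain partner of ISWI ATPases. Probe set 1457039_at read 7.51 and 7.62, and 1431014_at read 6.98 on replicate 1 and 6.61 on replicate 2. Both were above background, and the arrays were in opposite order on them.

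Chrac1 encodes a small histone-fold protein that joins ACF to make the CHRAC complex in human cells. It read 9.61 and 9.62 on 1459859_x_at and 9.16 and 9.17 on 1422505_at. Both were above background, and their means lay 0.45 log2 units apart. The first carries the mark of a shared probe set, and without it the level of Chrac1 was 9.17 in place of 9.61.

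The arrays gave nearly the same level for most members. On the brightest probe set of each member the difference, replicate 2 minus replicate 1, ran from -0.12 (Smarca1) to 0.11 (Cecr2) log2 units. Of the 25 member probe sets above the threshold on at least 1 array, 16 differed by less than 0.1 log2 units. That share was not counted over all such probe sets. Their median absolute difference was also under 0.1, so nothing particular to the members is read from it. The SD of the difference over these 25 was 0.144, against 0.128 over all 25987 such probe sets, and the median absolute difference was 0.044 against 0.067. Replicate 2 was the higher in 17 of 25 (68.0%), and in 55.9% of all 25987. None of the 25 differed by 1.5-fold, against 0.123% of all.

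Differences were then set beside those of all probe sets of like level, in 20 bins of equal number. Of the 32 member probe sets 2 lay outside the central 95% of their bin, against 5.06% of all 45101 probe sets. The limits place about that share outside by definition, so nothing particular to the members is read from the count. For Bptf, 1427311_at was 0.49 log2 units (1.41-fold) higher on replicate 2, where the central 95% ran from -0.23 to 0.26. Probe set 1427310_at, of the same target entry, differed by 0.11 in the same direction, inside its bin (-0.11 to 0.15), and 1456615_a_at by -0.032. For Cecr2, 1431014_at was 0.37 log2 units lower on replicate 2 (a difference of -0.37), where the central 95% ran from -0.27 to 0.29, while 1457039_at differed by 0.11 in the other direction. In both genes the wide difference was thus not shared by every probe set of the gene.

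**Figure D3:**
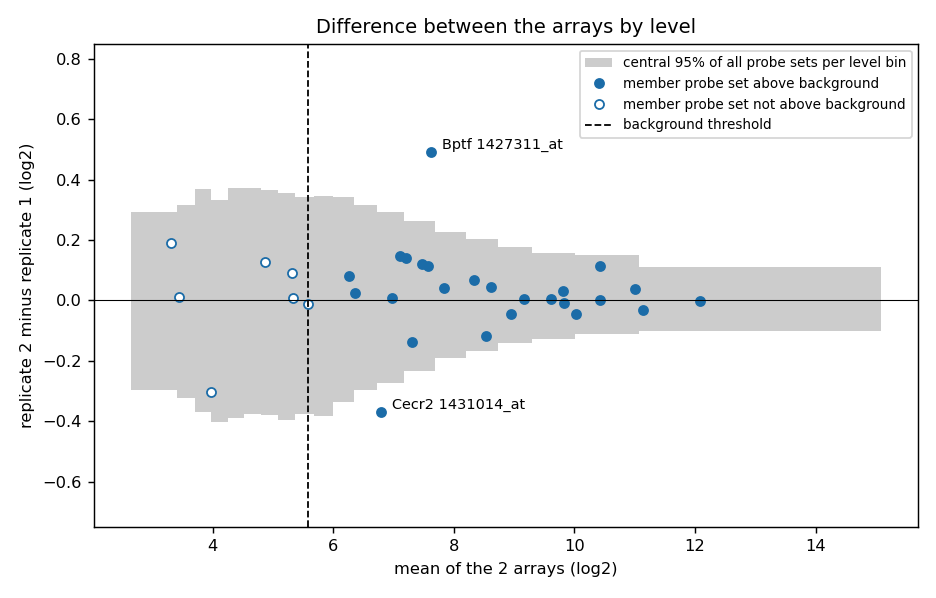
Difference between the arrays (y axis, replicate 2 minus replicate 1, log2) against the mean of both (x axis, log2) for the 32 member probe sets, filled where above background and open where not. The grey band is the central 95% of all probe sets in each of 20 level bins and the dashed line is the threshold; only 1427311_at of Bptf (0.49) and 1431014_at of Cecr2 (-0.37) lie outside the band.

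Genes listed as partners of these complexes were mostly above background too. Over 4 lists, 22 of 24 measured partner genes were, again beside 68.4% of all genes, and with the ATPase genes of other remodelling families 39 of 41 were. Of these 39, 27 had every probe set above background, against 68.5% of all genes above background. In the list headed other ISWI subunits, 4 of 4 genes were above background. They were the histone-fold genes Pole3, at 9.74 ± 0.017, and Pole4, at 10.65 ± 0.043, and a pair of histone chaperone genes. Values here and below are means ± SD, n = 2, of RMA log2 values. Pole4 is not claimed here to be a subunit of an ISWI complex. Pole3 pairs with the Chrac1 protein in human CHRAC, so transcripts of both partners were measured.

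Of 6 partners of B-WICH, the form of the WSTF complex found at ribosomal RNA genes in human cells, 5 were above background, among them the nuclear myosin gene Myo1c (11.68 ± 0.0060). Ercc6, which encodes the repair ATPase CSB, was not: its 1 probe set read 5.22 on replicate 1 and 5.71 on replicate 2, a mean of 5.47 ± 0.35. It lay over the threshold on replicate 2 only. All 7 partners of NoRC were above background, including Ttf1 (7.86 ± 0.14), a factor of ribosomal gene transcription, and the DNA methyltransferase gene Dnmt1 (10.59 ± 0.0016).

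In the list around the H2AX tyrosine and replication, 6 of 7 were above background. H2ax itself was at 11.02 ± 0.032. Of the EYA phosphatase genes, whose products remove the mark that WSTF adds, 3 of 4 were above background, against 68.4% of all genes. Eya1 was at 7.79 ± 0.078 on the brightest of its 3 probe sets, the only 1 above background. For each of the other EYA genes above background, 2 of 4 probe sets were. Eya2 read 4.38 and 4.05, below the threshold on both arrays. All 17 ATPase genes of other remodelling families were above background, with Smarca4 and Smarca2, the motors of the BAF complex, at 10.48 ± 0.037 and 8.83 ± 0.0027. Chd5, at 5.81 ± 0.0065, was only 0.22 log2 units over the threshold; it was named after its value was seen.

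Markers of the labelled cell type were above background, and so were those of fibroblasts, a usual cell of feeder layers. The counts stand beside 68.4% of all genes and rest on the brightest probe set. Some markers so called, in the pluripotent, fibroblast and neural lists, had other probe sets that were not above background. All 10 markers of pluripotent cells were above background, from 9.38 to 14.09, with Pou5f1 at 12.63 ± 0.020 and Nanog at 12.11 ± 0.063. All 9 measured fibroblast markers were as well, from 10.78 to 14.87, with Col1a1 at 12.67 ± 0.021 and Col1a2 at 14.87 ± 0.0061. Of 4 measured blood cell markers 2 were, Csf1r (6.73 ± 0.19) and Cd3e (6.56 ± 0.023), while Ptprc (4.05 ± 0.13) and Itgam (3.92 ± 0.077) were not. Of 6 neural markers 2 were, Neurod1 (6.05 ± 0.13) and Rbfox3 (6.77 ± 0.088), and Sox1 (5.23 ± 0.19), Pax6 (5.54 ± 0.062), Gfap (5.53 ± 0.073) and Olig2 (3.03 ± 0.15) were not. Csf1r, Cd3e, Neurod1 and Rbfox3 were named after their values were seen. Which cells of the culture the transcripts of Baz1b and the other members came from was not tested. In such RNA a smaller share of cells of a type and less RNA per cell cannot be told apart. The labels do not give the genotype of the feeder cells.

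**Figure D4:**
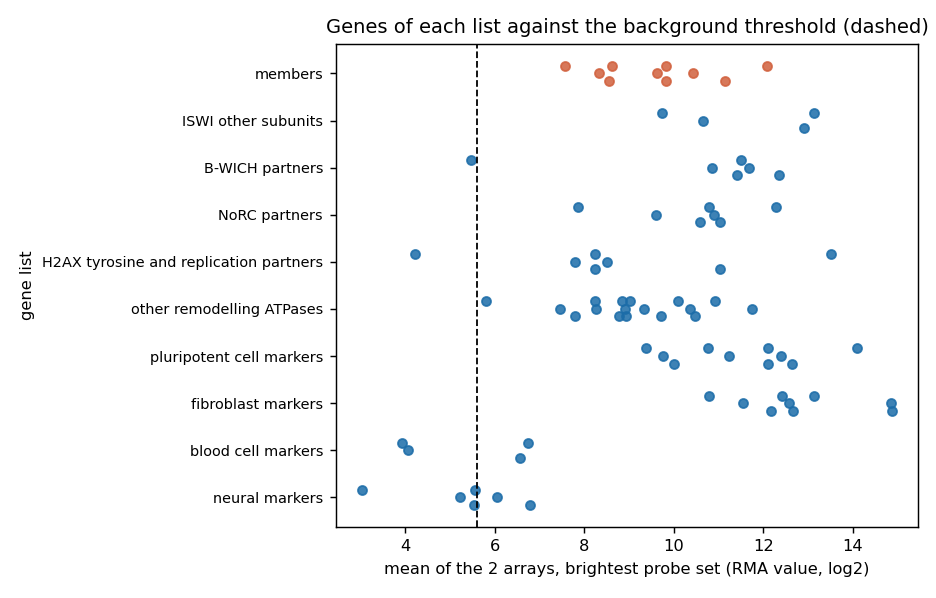
Mean of the 2 arrays for the brightest probe set of each gene (x axis, RMA value, log2), 1 point per gene, by list (rows), with the background threshold of 5.59 as a dashed line; points are moved up or down only to separate them. All 10 members, 10 pluripotent cell markers and 9 fibroblast markers lie right of the line, and Ercc6, Eya2, 2 blood cell and 4 neural markers lie left of it.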

How the data were processed

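Total RNA was labelled with biotin and hybridised to Affymetrix arrays, 1 array per sample, 2 in all. The deposited values are log2 values made by the authors with RMA, per the submitters' processing notes; the sources used here give neither its version nor the arrays normalized together. Quantile normalization within RMA would hide a change shared by most genes. There is no read depth on arrays, so precision is limited by how many there are. The median value was 6.01 on each array. The columns left unused numbered 0.

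Gene names came from a platform annotation of the probe sets (34958 with 1 symbol, 932 with several and left unnamed, 9211 with none). The brightest probe set stood for a gene. Genes were called by the 95th percentile of 39 olfactory receptor genes, and arrays compared by the difference of log2 values, in Python 3.11.15 with numpy 2.4.6, pandas 2.3.3 and statsmodels 0.14.6. No test between conditions was possible, and none was run. The named genes were every member and, of each other list, the first 2 measured genes and those not above background; others are marked as named after their values were seen. Of the listed genes, 3 were not analysed here. Members, lists and rules were chosen with earlier results of these data known, and the promoter motifs with the sequences in view. The planned comparison of protein sequences was not run, since no protein table was used. Only the background call and the fold limit were tested on simulated data. Silent genes there were drawn from the olfactory receptor values that set the threshold, which largely fixes how many are called. Expressed genes there lay well above the threshold, so calls of weakly expressed genes were not tested.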

Additional observations from a re-analysis of the deposited data

How the results depend on the processing

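The count of members above background was 10 of 10 with the 90th or 99th percentile, with vomeronasal and taste receptors as the background genes, with each array centred on its median, on each array alone, with a median over the probe sets of a gene in place of the brightest, which also lowers the threshold to 5.28, and 9 of 9 with unshared probe sets, which left out Smarca1. The count of member probe sets, 25 of 32, was 28 with the 90th percentile, 26 with all olfactory receptor probe sets, 23 of 28 unshared, 27 against the threshold of the median rule, and 25 with the 99th percentile, the other receptors, centring and each array alone. The partner count of 39 of 41 ran from 38 to 40 of 41, and was 37 of 39 with unshared probe sets. Ercc6 was above background with the 90th percentile and on replicate 2 alone, Chd5 was not with vomeronasal and taste receptors (threshold 6.08), and Eya1 was not with the median rule. No member probe set passed 1.5-fold or 2-fold, and 2 passed the lower of the planned limits, as a lower limit can only admit more. The SD of the difference was 0.143 to 0.153 over the alternatives. Under the median rule 9 of 10 levels moved by more than their SD between arrays, by up to -4.24 for Baz1b, and with unshared probe sets 3 of 9 did, Baz2a, Bptf and Chrac1. No paired analysis was possible because the design has only 1 group. Signal over background limits calls near the threshold, where absence and weak expression look alike.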
